A study of Saccharomyces cerevisiae with 4 samples.

Results

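The 55 rows of the mitochondrial genome were taken from the 7133 rows of a table of yeast RNA levels. A row was a member if its locus lay on the mitochondrial DNA sequence, whatever its level. Of the 55 rows 28 had a gene ID starting with Q and 27 had none. They comprised 8 protein genes, 10 reading frames inside introns, 10 other reading frames, 2 ribosomal RNA (rRNA) genes, 24 transfer RNA (tRNA) genes and RPM1, the RNA part of the mitochondrial enzyme RNase P. The annotation used here held 46 of them, each at the position the table gives. The other 9 were all among the 10 other reading frames and are named only by their IDs.

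Wild-type budding yeast, Saccharomyces cerevisiae, was cultured at 30 °C in synthetic complete medium. The calorie-restricted condition (CR) had 0.05% glucose and the non-restricted condition (NR) 2% glucose, with 2 biological replicates (A and B) of each. Total RNA was extracted, fragmented and made into libraries with a kit for small RNA. Levels were deposited as FPKM (fragments per kilobase of a row, scaled to all those mapped in that library), so the number of fragments behind a value is unknown. The sources used here do not give the strain background, the growth stage or the number of mitochondrial DNA copies. Less RNA per copy, fewer copies and fewer cells that hold mitochondrial DNA cannot be told apart in RNA from a whole culture.

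Mitochondrial DNA of yeast encodes core subunits of respiratory complexes III and IV and of the ATP synthase, a protein of the mitochondrial ribosome, and the rRNAs and tRNAs that translate them. The nuclear genes RPO41 and MTF1 encode the RNA polymerase and its initiation factor, which start transcription at a short conserved promoter. Long transcripts are then cut at the ends of tRNAs, and introns of COX1 and COB carry reading frames for proteins that help splicing or cut DNA. Respiration is repressed in yeast growing on high glucose.

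The labels were checked first. The glucose transporter gene HXT3, which is used at high glucose, was at 12.1 and 11.5 FPKM in CR A and CR B, against 905 and 925 in NR A and NR B. The glucose-repressed alcohol dehydrogenase gene ADH2 was at 3160 and 2126 FPKM in CR A and CR B, against 21.8 and 18.1 in NR A and NR B. RNA of mitochondrial protein genes was listed above 0 in every library, with 7 of the 8 genes above 0 in CR A, NR A and NR B and all 8 in CR B. The CR replicates differed in one respect that touches every result here. Rows without a gene ID, mostly tRNA and small RNA genes, held 27.4% and 87.2% of all FPKM in CR A and CR B, against 34.0% and 29.9% in NR A and NR B. Each library is therefore given apart.

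The promoter of yeast mitochondrial RNA polymerase is the motif ATATAAGTA, of 9 bases. It was searched for on both strands of the 85779 bases of the mitochondrial sequence (RefSeq, build R64, GC content 17.1%), and 14 matches were found, 11 on the plus strand and 3 on the minus strand. The matches closest ahead of 15S rRNA, COX1, OLI1, 21S rRNA and the methionine tRNA tM(CAU)Q2, with both matches ahead of OLI1, are printed because the results turn on these RNAs and transcription is known to begin at this motif. Each is on the plus strand, with the motif in capitals.
15S rRNA, chrM:6442-6482, motif 76 bases before the gene: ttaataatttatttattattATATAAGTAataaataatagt
COX1, chrM:13329-13369, motif 461 bases before the coding start: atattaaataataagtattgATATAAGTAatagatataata
OLI1, chrM:46051-46091, motif 644 bases before the coding start: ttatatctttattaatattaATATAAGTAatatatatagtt
OLI1, chrM:46129-46169, motif 566 bases before the coding start: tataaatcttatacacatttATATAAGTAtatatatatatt
21S rRNA, chrM:57980-58020, motif next to the gene: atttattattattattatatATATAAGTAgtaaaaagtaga
tM(CAU)Q2, chrM:84994-85034, motif 13 bases before the gene: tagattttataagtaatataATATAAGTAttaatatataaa
In windows of 300 bases, from 250 before to 50 after the start of a gene, the motif on either strand was found at 3 of 46 mitochondrial genes (6.52%) and at 69 of 6431 nuclear genes (1.07%). A match of these letters is a description of the sequence.

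Most mitochondrial tRNA rows were at 0 in some library. The sequences of the 5 that were above 0 in all 4 libraries, and of the isoleucine and methionine tRNAs that passed the test, are printed next (RefSeq, build R64, plus strand, as DNA, anticodon in capitals).
tY(GUA)Q, chrM:70824-70907: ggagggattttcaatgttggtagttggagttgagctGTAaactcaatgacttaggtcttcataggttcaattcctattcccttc
tS(UGA)Q2, chrM:48201-48290: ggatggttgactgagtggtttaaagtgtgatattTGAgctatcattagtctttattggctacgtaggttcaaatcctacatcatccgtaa
tA(UGC)Q, chrM:69846-69921: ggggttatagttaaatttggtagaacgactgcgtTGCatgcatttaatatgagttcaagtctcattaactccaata
tQ(UUG)Q, chrM:66210-66285: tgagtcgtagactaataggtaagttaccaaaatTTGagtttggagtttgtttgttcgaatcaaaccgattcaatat
tD(GUC)Q, chrM:68322-68396: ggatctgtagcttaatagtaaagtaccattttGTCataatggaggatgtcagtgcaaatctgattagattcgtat
tI(GAU)Q, chrM:70162-70237: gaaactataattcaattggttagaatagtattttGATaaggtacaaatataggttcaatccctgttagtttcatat
tM(CAU)Q2, chrM:85035-85112: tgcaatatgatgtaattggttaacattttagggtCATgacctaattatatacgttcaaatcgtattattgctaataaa

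Of the 55 rows 45 were above 0 in at least 1 library and 26 in all 4. CR A listed 30 rows above 0 and CR B 44, against 29 in NR A and 31 in NR B. The 10 rows at 0 in every library were 5 tRNA rows and 5 of the other reading frames. CR was compared with NR by limma on log2(FPKM + 1) over all 6483 rows of the table with a mean of 1 FPKM or more. Over all rows 16.5% were called higher in CR and 11.8% lower (28.3% together) at an adjusted p of 0.05. Of the mitochondrial rows 34 reached the filter, and 3 were called higher and 2 lower. The higher rows were tI(GAU)Q, tM(CAU)Q2 and the reading frame Q0092, each listed at 0 in both NR libraries. The lower rows were COX1 and AI5_BETA, a reading frame within its introns. The conditions did not overlap for 12 of the 34 rows, with CR above NR in 8 and below it in 4. Over all rows tested 72.4% did not overlap, with CR above in 38.8% and below in 33.6%. A row that reached the filter only through CR B had to be high there. Without CR B 8 of the 34 rows fell under 1 FPKM, COX2, BI2 and 6 rows that were above 0 in CR B alone. A further row, tM(CAU)Q1, was above 0 in NR B alone.

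**Figure D1:**
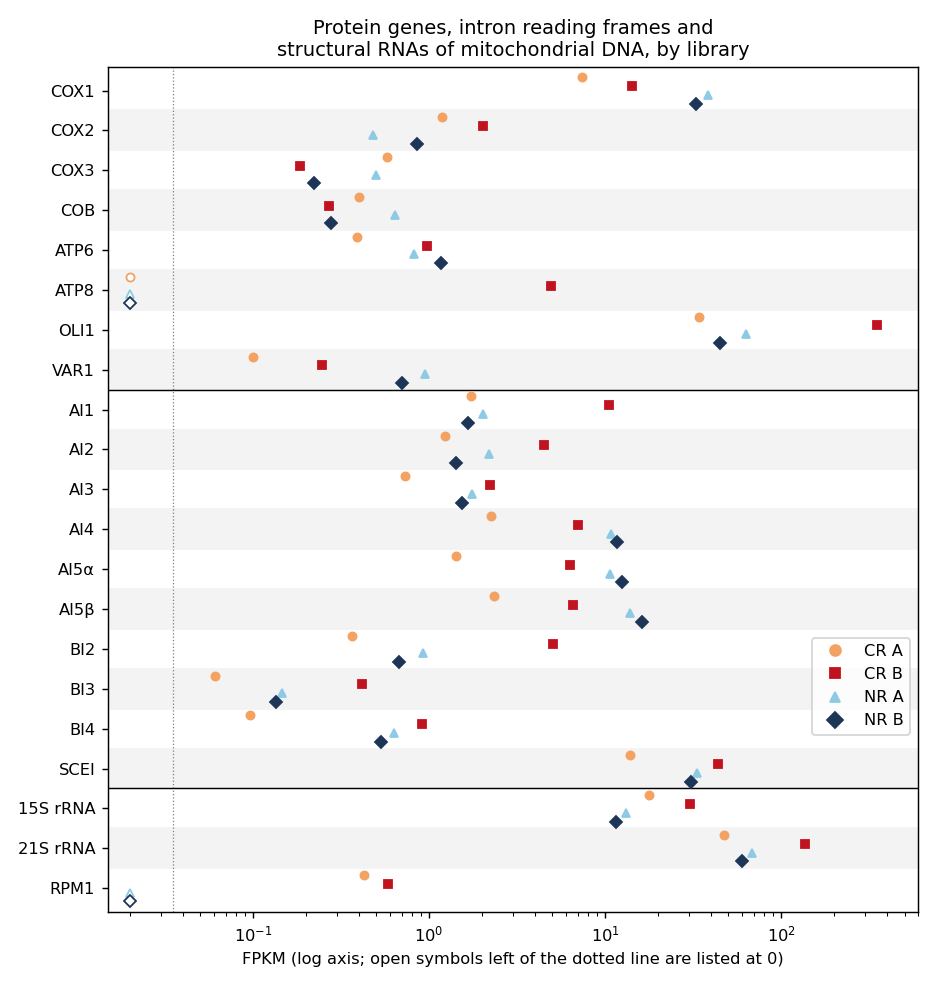
FPKM (log axis) of the mitochondrial protein genes, intron reading frames, rRNAs and RPM1 in each library, with rows down the page and the libraries CR A, CR B, NR A and NR B as separate symbols; open symbols are values listed at 0. COX1 lies at 7.36 and 14.1 FPKM in CR A and CR B, left of 38.3 and 32.6 in NR A and NR B, while OLI1 in CR B lies at 351, far right of the other 3 libraries.

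COX1 RNA was lower in CR. COX1 (gene ID Q0045) encodes the catalytic core subunit of cytochrome c oxidase, complex IV, and occupies positions 13818 to 26701 in 8 exons. Its level was 7.36 and 14.1 FPKM in CR A and CR B, against 38.3 and 32.6 in NR A and NR B. The mean was 10.7 ± 4.8 FPKM in CR and 35.4 ± 4.1 in NR (SD, n = 2 each), and the groups did not overlap. The log2 fold change of CR over NR was -1.69 (SE 0.34, adjusted p = 0.026, limma). Among all rows with a gene ID, COX1 stood at percentile 10.9 and 18.3 in CR A and CR B, against 39.6 and 37.0 in NR A and NR B. Leaving out NR A or NR B ended the call, with adjusted p of 0.19 and 0.13, at log2 fold changes of -1.58 and -1.80.

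No change was called for the other mitochondrial subunits of complexes III and IV. COX2 (Q0250), the subunit that takes electrons from cytochrome c, was at 1.18 and 2.02 FPKM in CR A and CR B, against 0.478 and 0.851 in NR A and NR B. The groups did not overlap, and the difference of 0.63 on the log2 scale (SE 0.38) did not pass the test (adjusted p = 0.26, limma). COX3 (Q0275), another core subunit, was at 0.574 and 0.184 FPKM in CR A and CR B, against 0.499 and 0.222 in NR A and NR B. Its highest and lowest libraries were both CR, and its mean was too low to be tested. COB (Q0105), cytochrome b of complex III, was at 0.399 and 0.269 FPKM in CR A and CR B, against 0.644 and 0.277 in NR A and NR B, also below the filter.

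OLI1 separated the replicates of CR from each other. OLI1 (Q0130, positions 46723 to 46953) encodes the subunit that forms the rotating ring of the ATP synthase. It was at 34.2 and 351 FPKM in CR A and CR B, against 63.1 and 44.7 in NR A and NR B. CR A was the lowest of the 4 libraries and CR B the highest, and the CR over NR change was 1.04 on the log2 scale with an SE of 1.08 (adjusted p = 0.49, limma). Fitted with CR B alone the change was 2.70, and with CR A alone it was -0.62, each from 1 CR library without a CR spread. OLI1 is a short gene of 231 bases. Among 129 nuclear genes of 200 to 260 bases the median CR B over CR A difference was 0.07 on the log2(FPKM + 1) scale and the highest 2.21, against 3.32 for OLI1.

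The other ATP synthase subunits were near the limit of the table. ATP6 (Q0085), the subunit that forms the proton channel with the ring, was at 0.388 and 0.969 FPKM in CR A and CR B, against 0.817 and 1.17 in NR A and NR B. ATP8 (Q0080), a small membrane subunit, was at 4.93 FPKM in CR B and listed at 0 in CR A, NR A and NR B. VAR1 (Q0140), a protein of the small mitochondrial ribosomal subunit, was at 0.10 and 0.247 FPKM in CR A and CR B, against 0.947 and 0.706 in NR A and NR B. Both CR libraries were below both NR libraries, but the mean was under 1 FPKM, so VAR1 entered the test only without the filter, where it was called lower. The 6 protein genes other than COX1 and OLI1 summed to 2.64 and 8.62 FPKM in CR A and CR B, against 3.39 and 3.23 in NR A and NR B.

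The reading frames along the COX1 introns are given in order of position. AI1 to AI5_ALPHA each begin at the COX1 start codon and run through its first exons into an intron, so their rows share exons with COX1 and with each other. AI1 (Q0050) and AI2 (Q0055) encode proteins that splice their own intron and copy RNA into DNA. AI3 (Q0060), AI4 (Q0065) and AI5_ALPHA (Q0070) encode DNA endonucleases of mobile introns. How the submitters' software divided reads between such rows was not among the information used here.

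The upstream frames were not lower in both CR libraries. AI1 was at 1.73 and 10.5 FPKM in CR A and CR B, against 2.01 and 1.67 in NR A and NR B. AI2 was at 1.23 and 4.46 FPKM in CR A and CR B, against 2.19 and 1.42 in NR A and NR B. AI3 was at 0.729 and 2.23 FPKM in CR A and CR B, against 1.74 and 1.55 in NR A and NR B. In all 3 frames CR B was the highest library, CR A was below or within the NR range, and no change passed the test (adjusted p 0.33 for AI1, limma).

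The downstream frames lay lower in both CR libraries, with CR B again above CR A. AI4 was at 2.24 and 6.97 FPKM in CR A and CR B, against 10.8 and 11.6 in NR A and NR B (log2 fold change -1.27, SE 0.47, adjusted p = 0.11, limma). AI5_ALPHA was at 1.42 and 6.29 FPKM in CR A and CR B, against 10.7 and 12.5 in NR A and NR B (-1.58, SE 0.56, adjusted p = 0.094, limma). AI5_BETA (Q0075, positions 24156 to 25255) was at 2.34 and 6.56 FPKM in CR A and CR B, against 13.9 and 16.2 in NR A and NR B (-1.67, SE 0.44, adjusted p = 0.047, limma). Of the 3, AI5_BETA alone passed the test, and leaving out NR A or NR B ended its call, as it did for COX1 (adjusted p 0.21 in both cases).

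Summed, AI4, AI5_ALPHA and AI5_BETA stood at 1.62 times the sum of AI1, AI2 and AI3 in CR A and at 1.15 times in CR B, against 5.96 times in NR A and 8.69 times in NR B. This ratio within a library does not depend on how the library was scaled, and its CR and NR values did not overlap. It was formed after the values had been seen and is given as a description. The downstream sum was 5.99 and 19.8 FPKM in CR A and CR B, against 35.4 and 40.3 in NR A and NR B. The upstream sum was 3.69 and 17.2 FPKM in CR A and CR B, against 5.94 and 4.64 in NR A and NR B. Besides a lower downstream sum, the ratio in CR B thus reflected a higher upstream sum, which CR A did not have. COX1 over AI5_BETA, a further ratio of this kind, was 3.15 and 2.15 in CR A and CR B, against 2.76 and 2.01 in NR A and NR B, and its CR and NR values overlapped.

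**Figure D2:**
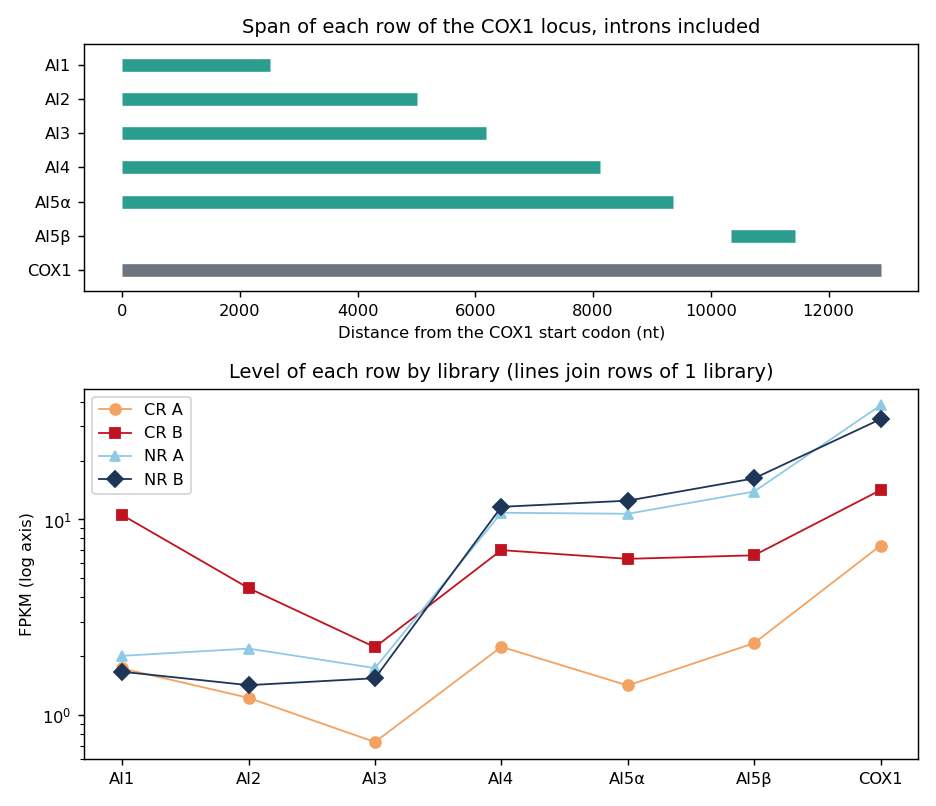
Upper panel, the span of COX1 and of each intron reading frame of its locus in bases from the COX1 start codon; lower panel, the FPKM of the same rows (log axis), with a line joining the rows of each library. The downstream frames AI4, AI5_ALPHA and AI5_BETA lie at 1.42 to 6.97 FPKM in the CR libraries and at 10.7 to 16.2 in the NR libraries, while for AI1 the highest value is 10.5 in CR B.

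Intron frames of the COB locus were low throughout. BI2 (Q0110), which encodes a splicing factor of a COB intron, was at 0.365 and 5.07 FPKM in CR A and CR B, against 0.928 and 0.671 in NR A and NR B. CR A was the lowest and CR B the highest library, and the change of 0.68 (adjusted p = 0.52, limma) did not pass the test. The difference of CR A alone from the NR mean was -0.39. BI3 and BI4, which encode further splicing factors of COB, stayed under 1 FPKM in all libraries and were not tested.

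The rRNAs of the mitochondrial ribosome were both highest in CR B. The 15S rRNA of the small subunit (positions 6546 to 8194) was at 17.7 and 30.1 FPKM in CR A and CR B, against 13.0 and 11.5 in NR A and NR B. Both CR libraries were above both NR libraries, with a change of 0.86 on the log2 scale (SE 0.31) that did not pass the test (adjusted p = 0.096, limma). The 21S rRNA of the large subunit (positions 58009 to 62447, 2 exons) was at 47.5 and 136 FPKM in CR A and CR B, against 68.2 and 60.0 in NR A and NR B. Here CR A was below and CR B above NR, and the change of 0.33 (SE 0.51, adjusted p = 0.64, limma) was within the replicate spread.

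SCEI (Q0160) lies inside the 21S rRNA intron and encodes the homing endonuclease I-SceI, which cuts DNA copies that lack this intron. It was at 13.8 and 43.8 FPKM in CR A and CR B, against 33.0 and 30.8 in NR A and NR B (log2 fold change -0.35, adjusted p = 0.64, limma). SCEI over 21S rRNA was 0.290 and 0.321 in CR A and CR B, against 0.484 and 0.513 in NR A and NR B. COX1 over 15S rRNA was 0.416 and 0.470 in CR A and CR B, against 2.94 and 2.82 in NR A and NR B. Both ratios were lower in the CR libraries, with close replicates. Further ratios were also lower in CR but differed more between CR A and CR B. COX1 over OLI1 was 0.216 and 0.0403 in CR A and CR B, against 0.607 and 0.728 in NR A and NR B. 21S over 15S rRNA was 2.68 and 4.53 in CR A and CR B, against 5.23 and 5.19 in NR A and NR B. Like the ratio of intron frames all these ratios were formed after the values had been seen, and no test is given.

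RPM1, the RNA of RNase P that trims the front ends of tRNAs, was at 0.430 and 0.582 FPKM in CR A and CR B and listed at 0 in NR A and NR B. Its mean was below the filter, and it was called higher only in the fit without one. Among the other reading frames, Q0092 was at 3.22 and 2.90 FPKM in CR A and CR B and listed at 0 in both NR libraries (adjusted p = 0.019, limma). Q0092 reached the filter only through CR and had an NR spread of 0 by construction. Without NR A or NR B its adjusted p was 0.14 and 0.10. Q0297, which overlaps RPM1, was at 2.90 FPKM in CR B and at 0 in the other 3 libraries. Q0144, Q0182 and Q0255 stayed under 1 FPKM in every library.

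Transfer RNA rows carried by far the highest mitochondrial FPKM. Of 24 rows 19 were above 0 in some library (79.2%), against 13 of 275 nuclear tRNA rows (4.73%). These shares cannot be compared directly. Repeats in the genome were checked for mitochondrial rows only, and the treatment of multiply matching reads is unknown. Mitochondrial tRNA rows above 0 numbered 7 and 18 in CR A and CR B, against 8 and 10 in NR A and NR B. Their summed level was 3025 and 115660 FPKM in CR A and CR B, against 6574 and 4600 in NR A and NR B. All 24 rows had only 32-base stretches found once in the genome. Division by lengths of 71 to 90 bases gives these rows large FPKM for few fragments. Equal values at equal length occurred, such as 298 FPKM in CR B for both tC(GCA)Q and tI(GAU)Q, each of 76 bases.

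The tyrosine tRNA tY(GUA)Q was the most abundant mitochondrial row of CR B, NR A and NR B. It was at 687 and 69258 FPKM in CR A and CR B, against 4321 and 2292 in NR A and NR B. The CR replicates differed by 101-fold and lay on either side of NR, and the change did not pass the test (adjusted p = 0.71, limma). The alanine tRNA tA(UGC)Q led in CR A and was at 770 and 10537 FPKM in CR A and CR B, against 449 and 360 in NR A and NR B (log2 fold change 2.82, SE 1.22, adjusted p = 0.14, limma). The serine tRNA tS(UGA)Q2 was at 352 and 14732 FPKM in CR A and CR B, against 438 and 113 in NR A and NR B. Here CR A lay inside the NR range and CR B above it.

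The glutamine tRNA tQ(UUG)Q was at 486 and 7955 FPKM in CR A and CR B, against 449 and 446 in NR A and NR B. The aspartate tRNA tD(GUC)Q was at 442 and 3755 FPKM in CR A and CR B, against 224 and 388 in NR A and NR B. For tA(UGC)Q, tQ(UUG)Q and tD(GUC)Q both CR libraries were above both NR libraries, but the distance from CR A to NR was small beside that from CR B to CR A, and none passed the test. CR B over CR A was 8.49-fold for tD(GUC)Q, 13.7-fold for tA(UGC)Q, 16.4-fold for tQ(UUG)Q and 41.8-fold for tS(UGA)Q2.

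Over all 4 libraries 2 tRNA rows passed the test, and both were listed at 0 in NR. The isoleucine tRNA tI(GAU)Q was at 154 and 298 FPKM in CR A and CR B and listed at 0 in NR A and NR B (adjusted p = 0.00185, limma). The methionine tRNA tM(CAU)Q2 was at 133 and 193 FPKM in CR A and CR B and listed at 0 in NR A and NR B (adjusted p = 0.00115, limma). Both reached the filter only through CR. With 2 values of 0 the NR spread is 0 by construction, and no fold is given against a group listed at 0. Among tRNA rows of 76 bases, the length of tI(GAU)Q, the lowest value above 0 was 208 FPKM in NR A and 167 in NR B. Both exceed the CR A values of tI(GAU)Q and of tM(CAU)Q2, which has 78 bases. In NR B the longer tL(UAA)Q and tS(UGA)Q2 were lower than these CR A values, at 79.7 and 113 FPKM. A value of 0 in NR therefore does not show a level below that of CR A. The other methionine tRNA, tM(CAU)Q1, was at 269 FPKM in NR B and listed at 0 in the other 3 libraries.

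A further 5 tRNA rows were above 0 in CR B alone, namely tE(UUC)Q at 862 FPKM, tN(GUU)Q at 651, tP(UGG)Q at 305, tC(GCA)Q at 298 and tS(GCU)Q1 at 297. The phenylalanine tRNA tF(GAA)Q was at 3247 FPKM in CR B and 290 in NR B and at 0 in CR A and NR A. The valine tRNA tV(UAC)Q was at 630 FPKM in CR B and 167 in NR B and also at 0 in CR A and NR A. These rows share a value of 0 in CR A and their highest value in CR B.

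The tryptophan tRNA tW(UCA)Q was at 0 and 1017 FPKM in CR A and CR B, against 242 and 195 in NR A and NR B. The threonine tRNA tT(UGU)Q1 was at 0 and 1223 FPKM in CR A and CR B, against 208 and 0 in NR A and NR B. The lysine tRNA tK(UUU)Q was at 0 and 347 FPKM in CR A and CR B, against 242 and 0 in NR A and NR B. Among rows above 0 in CR B, the leucine tRNA tL(UAA)Q was the only one with a higher library, at 0 and 54.0 FPKM in CR A and CR B, against 0 and 79.7 in NR A and NR B.

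**Figure D3:**
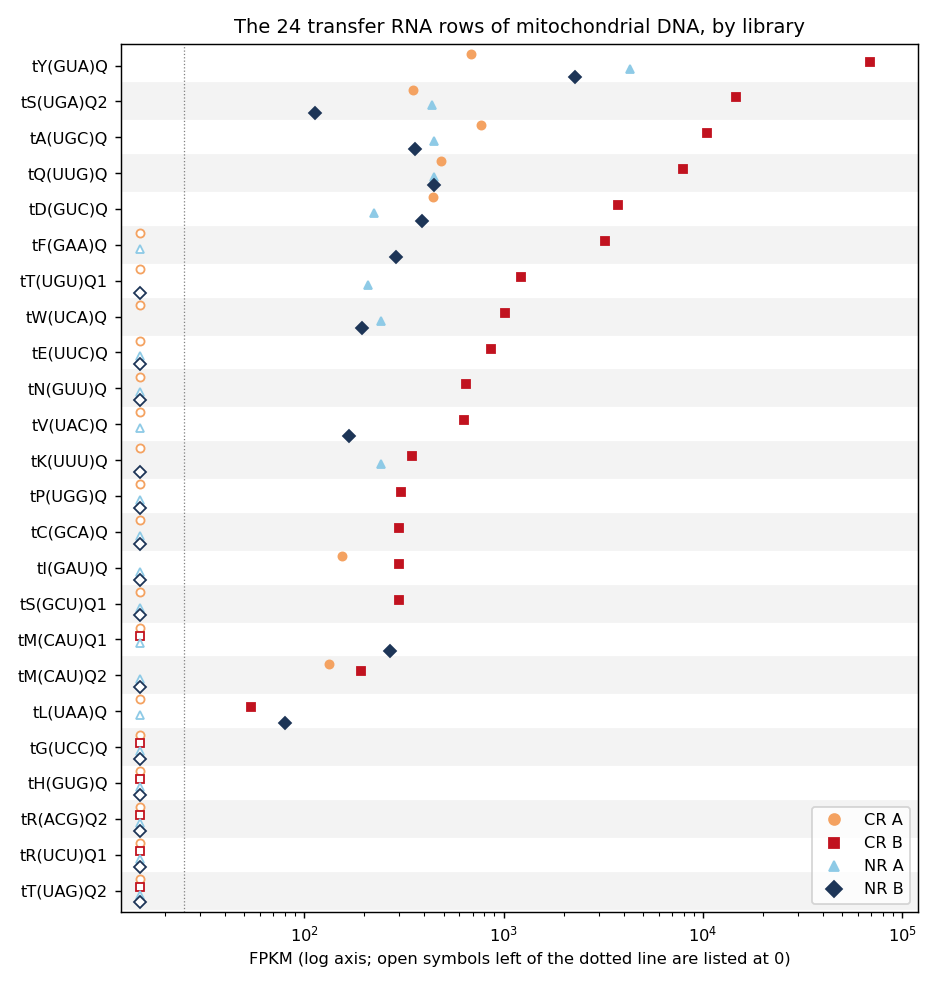
FPKM (log axis) of the 24 mitochondrial tRNA rows, with tRNAs down the page. The libraries CR A, CR B, NR A and NR B are separate symbols, and open symbols are values listed at 0. CR B is the highest library for 17 rows, up to 69258 FPKM for tY(GUA)Q. Of the 19 rows above 0 in at least 1 library, CR A is at 0 for 12.

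The difference between the CR replicates ran through most of the mitochondrial genome. CR B was above CR A in 41 rows and below it in 3, COB, COX3 and Q0092. Among rows tested it was above CR A in 32 of 34 mitochondrial rows, against 39.1% of all rows. Of the 34 rows 8 reached the filter only through CR B. Among those 8, 6 were above 0 in CR B alone, so their direction was fixed by the filter. With 1 library on each side the difference between CR A and CR B has no replicate check and no test.

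Length was compared because CR B held more FPKM in short noncoding rows. Over rows above 0 in both CR libraries, the median CR B over CR A difference on the log2(FPKM + 1) scale was 0.93 for 30 mitochondrial rows, -0.14 for 6453 nuclear rows with a gene ID and 1.32 for 105 nuclear rows without one. In rows that span up to 110 bases, introns included, it was 3.77 for 7 mitochondrial rows, 3.24 for 47 nuclear rows without a gene ID and 0.17 for 53 nuclear rows with one. In rows that span over 1200 bases it was 0.90 for 13 mitochondrial rows and -0.17 for 2935 nuclear rows with a gene ID. CR B was above CR A in 12 of those 13 mitochondrial rows, in 2 of those 2 nuclear rows and in 954 of those 2935. Most of the 13 are COX1, COB and their intron frames, which share exons and are not independent. Between the NR replicates the median NR B over NR A difference of the mitochondrial rows was -0.10, against -0.07 for nuclear rows with a gene ID.

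**Figure D4:**
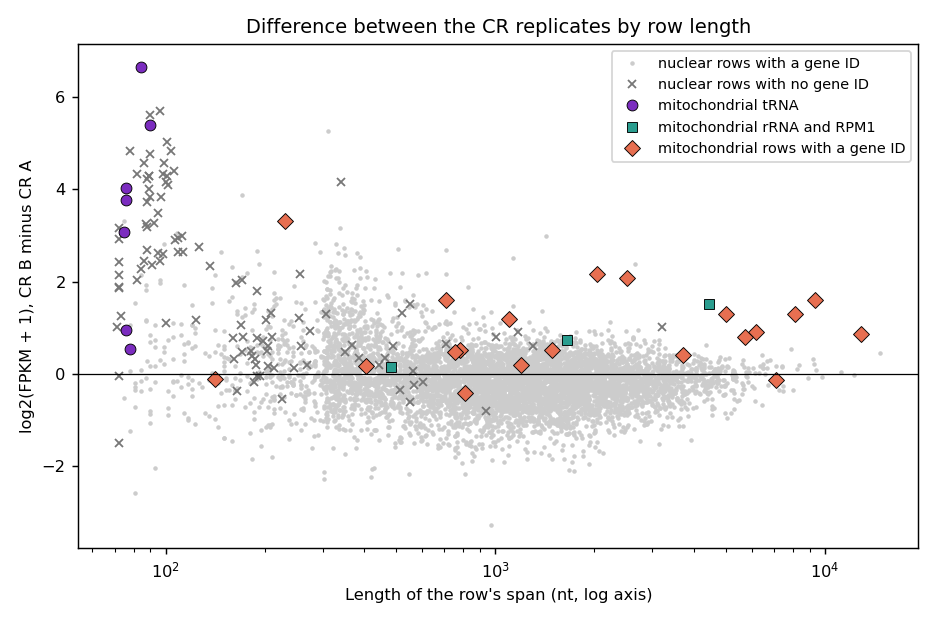
Difference of CR B over CR A on the log2(FPKM + 1) scale against the span of the row in bases (log axis), for nuclear rows with a gene ID, nuclear rows without one and mitochondrial rows by class, all above 0 in both CR libraries. Nuclear rows with a gene ID centre on -0.14 and nuclear rows without one on 1.32. Of the 30 mitochondrial rows 27 lie above 0, including 12 of 13 that span more than 1200 bases.

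Calls therefore depended on which CR library was used. The following fits each compare 1 CR library with the same NR libraries and are not independent of each other. They assume that the lone library varies like NR. ATP8 and 5 tRNA rows were above 0 in CR B alone and entered the CR B fit only through it. These 6 rows are among those called higher with CR B. The filter fixed their direction, so they give no support for a change. CR B against NR called 20 of 33 mitochondrial rows higher and 3 lower, against 25.4% higher and 24.8% lower (50.2% together) over all rows. The higher rows included 15S rRNA, 21S rRNA, AI1, AI2, BI2, OLI1, ATP8 and 13 tRNA rows, and 8 of the 20 were listed at 0 in both NR libraries. CR A against NR called 4 of 26 mitochondrial rows higher and 7 lower, against 24.5% higher and 16.9% lower (41.4% together) over all rows. The lower rows were COX1, AI4, AI5_ALPHA, AI5_BETA, SCEI, tW(UCA)Q and tY(GUA)Q. COX1, AI5_ALPHA and AI5_BETA were called lower with either CR library. The tRNAs tA(UGC)Q, tI(GAU)Q and tM(CAU)Q2 were called higher with either, the last 2 against NR values of 0. The tRNAs tW(UCA)Q and tY(GUA)Q were called higher with CR B and lower with CR A.

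Summed over the 8 protein genes, mitochondrial mRNA came to 44.2 and 373 FPKM in CR A and CR B, against 105 and 80.5 in NR A and NR B. OLI1 alone held 351 of the 373 FPKM in CR B. COX1 was at 14.1 FPKM in CR B, below 38.3 in NR A and 32.6 in NR B, so the sum does not stand for each gene. The rRNA rows summed to 65.2 and 167 FPKM in CR A and CR B, against 81.2 and 71.5 in NR A and NR B. The intron frames summed to 24 and 87.3 FPKM in CR A and CR B, against 76.1 and 77.0 in NR A and NR B. Among rows with a gene ID, the mitochondrial ones made up 0.00409% and 0.0300% of the FPKM in CR A and CR B, against 0.0105% and 0.00875% in NR A and NR B. In CR B OLI1 held 351 of the 468 FPKM behind this share. For the protein genes, rRNAs, intron frames and tRNAs CR A had the lowest sum and CR B the highest. The summed other reading frames and RPM1 were instead above both NR libraries in CR A as well as in CR B. An exact permutation test of 2 against 2 libraries cannot give a p under 0.33, so no test is given.

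Part of the nuclear subunits of the same complexes was called higher in CR and none lower. Of 9 nuclear subunits of complex IV 7 were called higher and 0 lower (median log2 fold change 1.17), of 15 ATP synthase genes 9 and 0 (1.33), and of 9 complex III genes 4 and 0 (0.65), where 16.5% of all rows were called higher with a median of 0.06. COX7, a small complex IV subunit, was at 381 and 561 FPKM in CR A and CR B, against 151 and 149 in NR A and NR B (1.62, SE 0.26, adjusted p = 0.017, limma). ATP2, the catalytic subunit of the ATP synthase, was at 701 and 603 FPKM in CR A and CR B, against 153 and 210 in NR A and NR B (1.85, SE 0.25, adjusted p = 0.012, limma). QCR2, a core subunit of complex III, was at 246 and 198 FPKM in CR A and CR B, against 49.2 and 56.8 in NR A and NR B (2.04, SE 0.21, adjusted p = 0.0075, limma). For these nuclear genes both CR libraries were above both NR libraries. COX12, COX6 and COX8 of complex IV, TIM11, ATP3 and ATP20 of the ATP synthase, and QCR8, QCR6 and RIP1 of complex III also rose, with log2 fold changes of 0.97 to 1.96. At an unadjusted p under 0.05, limma gave 7 complex IV, 14 ATP synthase and 4 complex III genes higher and 0 lower, where 43.9% of all rows passed that limit in either direction. The complex III count was close to this share. Named with small changes that did not pass are CYT1 (-0.27) and QCR10 (-0.18) of complex III and COX4 (0.13) and COX5B (0.02) of complex IV, chosen after their values were seen. Without NR A, and likewise without NR B, 0 genes of these lists were called, with 24 and 50 rows called higher in the whole table. Scaled to a common median, 2 of the complex III genes were called.

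Within each library the mitochondrial rows were set beside the lowest nuclear subunit, which was not the same gene throughout. In complex IV the lowest was the row of COX4 in the CR libraries (155 FPKM in CR A, 214 in CR B) and COX5A in the NR libraries (124 in NR A, 146 in NR B). The row of COX4 did not lie at its R64 position. COX1 was below these values in each library. In complex III the lowest was RIP1 in the CR libraries (239 FPKM in CR A, 173 in CR B) and QCR2 in the NR libraries (49.2 in NR A, 56.8 in NR B), and COB was under 1 FPKM throughout. In the ATP synthase it was ATP20 in CR A (164 FPKM), ATP3 in CR B (200.1), and ATP20 in NR A (59.1) and NR B (76.1). OLI1 was above the lowest ATP synthase subunit in CR B and NR A and below it in CR A and NR B.

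**Figure D5:**
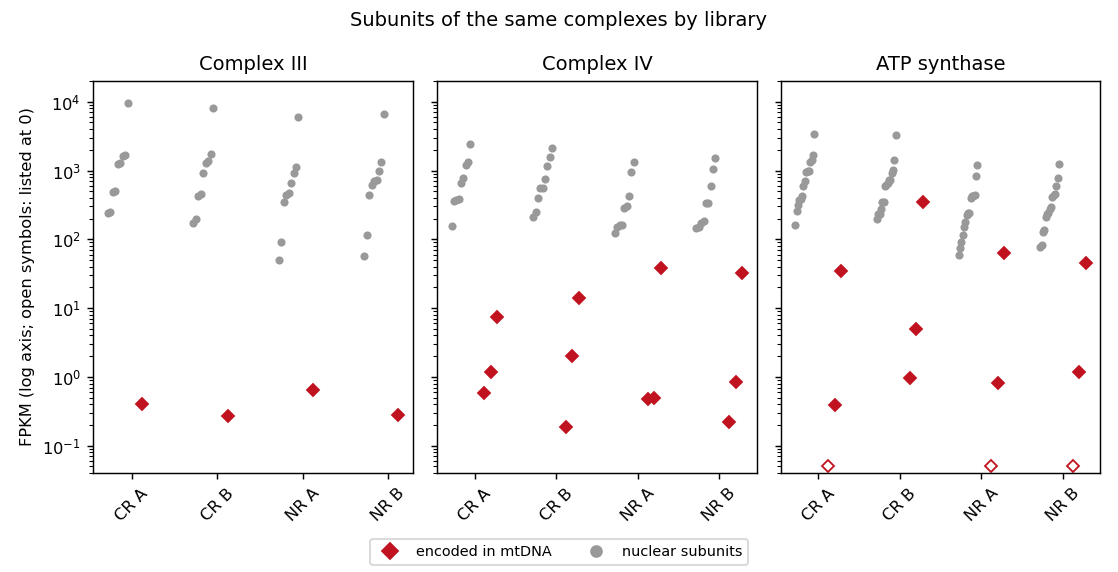
FPKM (log axis) of each subunit of complex III, complex IV and the ATP synthase in each library, with mitochondrial genes as diamonds and nuclear genes as circles; open symbols are values listed at 0. COB and the mitochondrial subunits of complex IV lie below every nuclear subunit of their complex in each library, and OLI1 alone reaches the nuclear range, at 351 FPKM in CR B and 63.1 in NR A.

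Among the core genes for transcribing and processing mitochondrial RNA, RPO41 and RPM2 were higher in CR. RPO41, the mitochondrial RNA polymerase, was at 86.9 and 66.4 FPKM in CR A and CR B, against 36.5 and 38.7 in NR A and NR B (log2 fold change 0.996, SE 0.22, adjusted p = 0.030, limma). Its initiation factor MTF1 was at 22.7 and 14.7 FPKM in CR A and CR B, against 16.4 and 11.3 in NR A and NR B (adjusted p = 0.37, limma). RPM2, the protein part of RNase P, was at 79.9 and 97.2 FPKM in CR A and CR B, against 31.4 and 25.6 in NR A and NR B (1.60, SE 0.22, adjusted p = 0.012, limma). The conditions did not overlap for RPO41 and RPM2 and overlapped for MTF1.

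MIP1, the mitochondrial DNA polymerase, was at 63.4 and 48.3 FPKM in CR A and CR B, against 32.9 and 29.7 in NR A and NR B (adjusted p = 0.051, limma). ABF2, which packs mitochondrial DNA, was at 697 and 831 FPKM in CR A and CR B, against 899 and 978 in NR A and NR B (adjusted p = 0.40, limma). Neither passed the test. Of 20 genes listed for copying, transcribing and processing mitochondrial DNA and RNA, RPM2 and RPO41 were called higher and 0 lower. The median log2 fold change of the list was -0.004. Over all rows 16.5% were called higher and 11.8% lower, so the list was below both shares. At an unadjusted p under 0.05, limma gave 4 higher and 3 lower, a smaller part of the list than the 43.9% of all rows. With libraries scaled to a common median 2 were called higher and 3 lower.

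Of 15 genes for splicing and stability of COX1 and COB RNA 1 was called higher, MSS18, which acts in splicing of a COX1 intron. It was at 133 and 147 FPKM in CR A and CR B, against 59.7 and 66.6 in NR A and NR B (1.13, SE 0.19, adjusted p = 0.018, limma). Of 20 translational activators and stabilisers of single mitochondrial mRNAs 6 were called higher and 0 lower (median 0.44), beside 16.5% of all rows higher with a median of 0.06. The splicing count was below that share. MSS51, needed to translate COX1 mRNA, was at 66.2 and 49.6 FPKM in CR A and CR B, against 23.3 and 23.5 in NR A and NR B (1.26, SE 0.22, adjusted p = 0.020, limma). It was higher in both CR libraries, where COX1 RNA itself was lower. NCA2 and ATP22, which act on ATP6 and ATP8 mRNA, and PET494, which acts on COX3 mRNA, were also higher, by 1.34, 1.20 and 1.23 on the log2 scale. At an unadjusted p under 0.05, limma gave 3 splicing genes and 10 activators higher and 0 lower, against 43.9% of all rows in either direction. Without NR A or without NR B 0 genes of the machinery, splicing and activator lists were called. PET309, PET54, CBP1 and NAM1 stand in both lists.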

How the data were processed

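The submitters' processing notes name CASAVA 1.8.2, Bowtie, Cufflinks 2.0.2 and sacCer2, a yeast genome build. Settings, strand use and the treatment of multiply matching reads were not among the information used here. FPKM values were deposited by the authors as 1 table with a column for each of the 4 libraries, read by their names. Positions come from the files, with 1 added to the start. All 46 mitochondrial genes of RefSeq R64 lay at these positions, so names, exons and sequences were taken from R64.

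From these, limma 3.58.1 (R 4.3.3) fitted log2(FPKM + 1) for CR against NR, with an intensity trend and no covariate. P-values were Benjamini-Hochberg adjusted across the 6483 rows averaging at least 1 FPKM, with or without a gene ID. Tests are two-sided, fold changes of low rows are understated on this scale, and p-values measure the spread between these libraries. Read counts were not used, so no counting interval is given. Tables and the motif search used Python 3.11.15 (pandas 2.3.3, NumPy 2.4.6), and plots matplotlib 3.10.9.

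The members and gene lists were chosen with earlier results of these data known. Named were all protein, rRNA and RPM1 rows, reading frames above 1 FPKM in some library, tRNA rows above 0 in some library, RPO41, MTF1, ABF2, MIP1 and RPM2, and up to 4 called members of each nuclear list with the smallest adjusted p. Alternatives were a pseudocount of 0.1 or 5, a filter at 10 FPKM or none, libraries scaled to the same median or sum, quantile normalization, a replicate block, no trend, rows with a gene ID only, and each library left out. Added after seeing the data was a choice of nuclear list rows at their R64 position.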

Additional observations from a re-analysis of the deposited data

How the results depend on the processing

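Over all rows 1069 were called higher and 768 lower (58.2% of calls higher). Scaling to a common median gave 890 and 1089 (45%), shifting the median of all rows to -0.06 from 0.06, and quantile normalization gave 972 and 972. Of the mitochondrial rows 3 were called higher and 2 lower. With rows of a gene ID only, 1 was higher. With a pseudocount of 0.1, a filter at 10 FPKM, scaling to a common sum, quantile normalization or no trend, 1 was lower, COX1. Leaving out 1 library gave 24 to 1649 rows higher and 4 to 1606 lower over all rows, and 2 to 20 higher and 0 to 7 lower among mitochondrial rows. Fewest rows were called without NR A (24 higher, 4 lower) and without NR B (50 and 33), and most without CR A or CR B.

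Of 18 mitochondrial results 7 changed sign when a library was left out. Without CR B, BI2 and COX2 fell under the filter and were not fitted, and CR A minus the NR mean was -0.39 for BI2, against a fitted 0.68. The 7 had log2 fold changes of -0.052 to 2.03 for AI1, -0.32 to 0.97 for AI2, -0.61 to 0.29 for AI3, -0.62 to 2.70 for OLI1, -0.42 to 1.08 for 21S rRNA, -1.15 to 0.45 for SCEI and -2.19 to 4.46 for tY(GUA)Q. Sign changes under the other settings numbered 0. COX1 stayed between -2.12 and -1.26 when a library was left out. AI5_BETA also lost its call with a pseudocount of 0.1, no filter, scaling to a common sum, quantile normalization and no trend. The cause was not tested.

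The letters A and B are not stated to mark a shared batch. The difference of A minus B in CR correlated with that in NR at 0.064 over the 6483 rows tested. A single such correlation does not settle whether libraries of the same letter share a batch. With the replicate letter as a block 1075 rows were called higher and 900 lower, and 3 mitochondrial rows each way, adding AI5_ALPHA (adjusted p = 0.049, limma). With the block complex IV had 4 rather than 7 genes higher, complex III 2 rather than 4, and the machinery list 4 rather than 2 higher and 2 lower. The depth of each library is unknown, so a row listed at 0 gives no upper limit.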
